A study of Mus musculus with 6 samples.

Results

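Ghrl, the gene of the hormone ghrelin, is 1 of 52542 genes counted on 6 plates of mouse islet cells, and nearly all of its counts lay in 3 wells. The gene was chosen for its uneven spread over wells and plates, so its own levels are given as a description, with no test. A well with over 1000 Ghrl unique molecular identifiers (UMIs, tags that each mark 1 captured transcript) is called Ghrl-high. There were 3 such wells among the 2115 wells that held at least 500 UMIs with no more than 20% from mitochondrial genes, out of 2304 wells in all.

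The plates come from male Sox9-CreER; tdTomato mice, in which a tamoxifen-inducible Cre driven by Sox9, which is active in pancreatic ducts, switches on a red reporter in the Sox9 lineage. All the mice received tamoxifen (8 mg) for 2 weeks when they were 10 weeks old. At 12 weeks they underwent a partial pancreatectomy (ppx), which removes part of the pancreas, or a sham operation, and islets were isolated after 4 weeks of recovery. Each operation has 3 plates of 384 wells: ppx 1 held tomato-positive cells and ppx 2 and 3 tomato-negative ones, while sham 1 held positive cells, sham 2 both kinds (positive in 4 rows) and sham 3 negative ones. The reporter's own transcript was not analysed here, and the positive rows of the mixed plate were not mapped to wells. The labels do not tie the plates to the 6 pancreata, so p-values over plates may not cover the spread between mice. The plates held 1262152 to 1508513 UMIs after ppx and 1250861 to 1458576 UMIs after sham operation, and the median kept well held 1954.5 UMIs on ppx 1 and 2119 on sham 1, against 3702.5 to 3929 on the other 4 plates.

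Ghrelin is a small peptide hormone best known from the stomach, where it is released before meals. In the islet it is made by epsilon cells, a rare endocrine type that is more common before birth. The prohormone is cut by the convertase encoded by Pcsk1 and is acylated by the enzyme encoded by Mboat4, and the acylated form acts on the receptor encoded by Ghsr, which in mouse islets is found mainly in delta cells, the source of somatostatin. Ghrl lies on chromosome 6 of the mm10 build, at chr6:113716119-113719880 on the minus strand. Gm26982 and Gm44033 overlap it on the opposite strand, and they held 30 and 9 UMIs on all 6 plates, against 7033 for Ghrl. Whether the counting used strand is not given in the sources used here.

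Ghrl UMIs were found almost only on the tomato-positive plates. The plates of ppx 1, 2 and 3 held 5284, 3 and 0 Ghrl UMIs, and those of sham 1, 2 and 3 held 1746, 0 and 0. The 3 Ghrl-high wells held 6439 of the 7033 UMIs, or 91.6%. On ppx 1 the wells numbered 1 and 2 here by their Ghrl count held 2788 and 2045 UMIs, and on sham 1 the single well held 1606. The next highest well of any plate held 9, and 0 wells lay between 10 and 1000, so that moving the threshold to 500 or 100 UMIs chose the same 3 wells. None of the 1404 kept wells of the other 4 plates was Ghrl-high, which allows a share of up to 0.214% of wells.

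**Figure D1:**
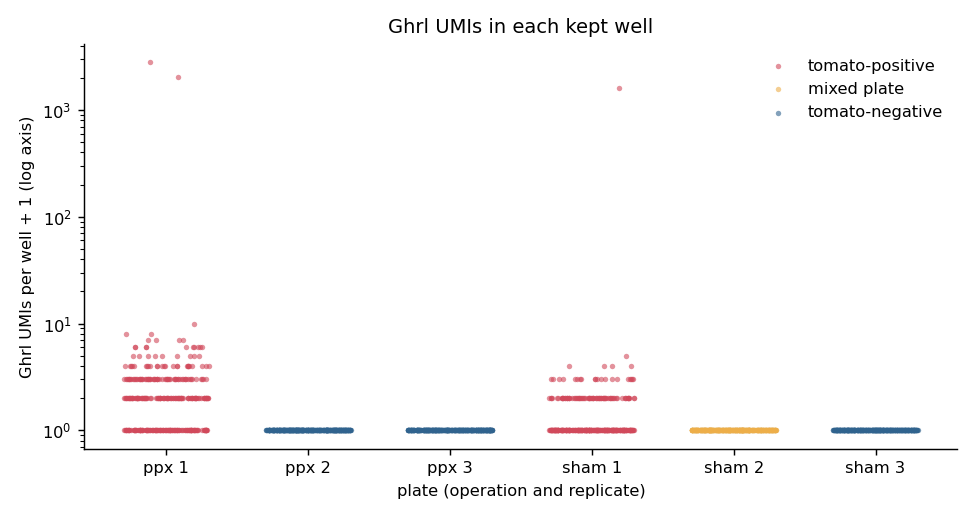
Ghrl UMIs in each kept well, with 1 added, on a log axis, by plate. Each point is a well and the colours give the tomato status of the plate. The 3 wells at 1606 to 2788 UMIs stand apart from all other wells, which hold at most 9, and the kept wells of ppx 2, ppx 3, sham 2 and sham 3 all lie at 0.

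In the 3 wells Ghrl was by far the most abundant transcript. It made up 39.8% and 34.2% of the UMIs of the ppx 1 wells and 32.8% of the UMIs of the sham 1 well. The second gene in each was mt-Rnr2, the mitochondrial large ribosomal RNA, with 383 and 273 UMIs in the ppx 1 wells and 137 in the sham 1 well. The wells were deep, with 7002 and 5987 UMIs on ppx 1 and 4895 on sham 1, and 1904, 1853 and 1759 genes were detected in them. A threshold on the Ghrl count favours deep wells. Mitochondrial genes took 8.61% and 8.17% of UMIs on ppx 1 and 6.27% on sham 1.

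None of the other islet hormones reached the level of its own cell type in these wells. The 7 hormone genes (Ins1, Ins2, Sst, Gcg, Ppy, Pyy and Iapp) together made up 0.949% and 0.964% of the UMIs other than Ghrl in the ppx 1 wells and 1.16% in the sham 1 well, against medians of 19.3% and 18.8% in the other wells of ppx 1 and sham 1. The 2 insulin genes Ins1 and Ins2 gave 6 and 5 UMIs in ppx 1 well 1, 7 and 9 in ppx 1 well 2, and 4 and 5 in the sham 1 well. Wells that were not insulin wells averaged 13.7 insulin UMIs on ppx 1 and 8.86 on sham 1. Gcg, the glucagon gene, gave 6 and 6 UMIs in the ppx 1 wells and 12 in the sham 1 well, where wells other than glucagon wells averaged 5.62 and 9.36. Sst, the somatostatin gene, gave 4 and 1 UMIs in the ppx 1 wells and 4 in the sham 1 well, below the 19.2 and 11.5 of wells with no more than 1% Sst. The counts of all these hormones in the Ghrl-high wells thus lay near or below what wells of other types held on the same plate.

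Other transcripts set these wells apart. UMIs were summed per plate over the Ghrl-high wells and over the other kept wells, and the sums of the 2 plates were compared with edgeR's quasi-likelihood test with plate as a block and Benjamini-Hochberg adjustment over 6735 genes, Ghrl left aside. The wells were chosen by their Ghrl counts only. Genes with an adjusted p under 0.05 were called, and 6 genes (0.0891%) were higher and 26 (0.386%) lower in the Ghrl-high wells, 0.475% in all. With 2 plates the spread rests on values shared over all genes. The Ghrl-high sums hold 2 wells on ppx 1 and 1 on sham 1, so the p-values do not cover the spread between Ghrl-high cells. With the library totals without Ghrl in place of TMM scaling, an alternative chosen after seeing the data, 21 genes were higher and 10 lower. Of the 6 higher genes 5 (Acsl1, Ceacam10, Serpina1a, Serpina1b and Serpina1d) passed the filter on low counts only through the Ghrl-high wells, so a lower call was not possible for them and their calls support nothing; Cpb2 and all 26 lower genes passed on the other wells alone. Across TMM, DESeq2's size factors, those totals, no filter on low counts and DESeq2 itself, 14 genes were called each time, 5 of them higher and 9 lower. Of these 5 higher genes only Cpb2 passed the filter on the other wells alone, so the repeated calls of the others are no support either.

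Acsl1, an enzyme that activates long-chain fatty acids by linking them to coenzyme A, gave 16 and 15 UMIs in the ppx 1 wells and 5 in the sham 1 well, and the 354 other wells of each plate held 13 UMIs on ppx 1 and 18 on sham 1, with at most 2 in any well. This is 2387 CPM (counts scaled to a common total of UMIs) in the Ghrl-high wells against 10.7 in the other wells of ppx 1, and 1022 against 14.8 on sham 1. Here and below, the CPM of the Ghrl-high wells keep Ghrl in the total, which lowers the values of all other genes there. Cpb2, which encodes a carboxypeptidase of blood plasma made mostly in liver, gave 13, 12 and 12 UMIs in the 3 wells and 37 and 21 UMIs in all other wells of ppx 1 and sham 1. Cpb2 was higher, and its log2 fold change was 5.24 ± 0.66 (SE, n = 2 plates, edgeR adjusted p = 1.76e-12). Both genes had more UMIs in each Ghrl-high well than in any other well of its plate.

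Serpina1a, Serpina1b and Serpina1d, copies of the gene for alpha-1-antitrypsin, a protease inhibitor, were nearly absent from the other wells. Serpina1a gave 4 and 11 UMIs in the ppx 1 wells and 6 in the sham 1 well, against 2 and 1 in the other wells of ppx 1 and sham 1. Serpina1b gave 4, 15 and 5 UMIs, against 1 and 2 in the other wells. Serpina1d gave 4, 6 and 6, against 1 and 3. The copies are nearly identical, so how reads were split between them is uncertain.

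Ceacam10, a cell adhesion molecule of the carcinoembryonic antigen family, gave 12 and 6 UMIs in the ppx 1 wells and 6 in the sham 1 well. It had 0 UMIs in all 708 other kept wells of these plates. Its counted level was 1089 times a floor of 3 UMIs over both plates in unscaled CPM, and 494 times with TMM scaling. On the other 4 plates, which had no Ghrl-high well, Ceacam10 gave 16 UMIs, so it was not particular to Ghrl-high wells over the series. Irs4, an insulin receptor substrate, gave 10 and 0 UMIs in the ppx 1 wells and 4 in the sham 1 well and 0 in the other wells of both tomato-positive plates. It fell below the filter on low counts, and pooled over the plates its counted level was 635 times that floor in unscaled CPM and 288 times with TMM. These ratios leave out the counting error of the 24 Ceacam10 and 14 Irs4 UMIs in the Ghrl-high wells. Unlike the 6 called genes Irs4 was seen in 2 of the 3 wells.

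**Figure D2:**
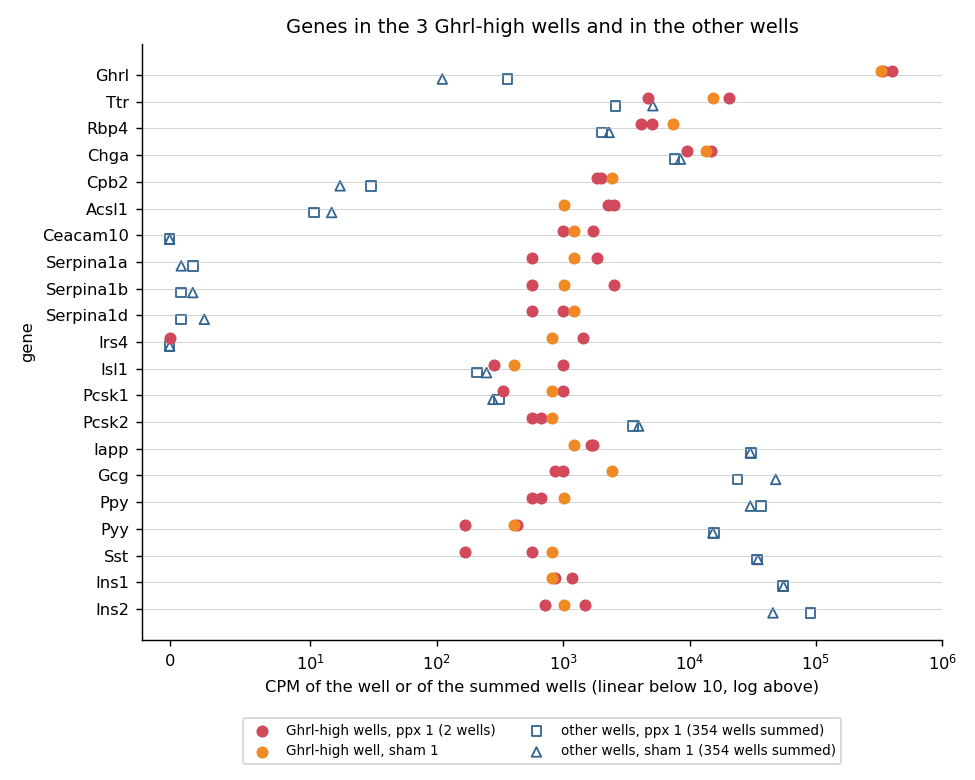
CPM of 21 genes in each of the 3 Ghrl-high wells (filled circles) and in the summed other 354 wells of each plate (open symbols), on an axis that is linear below 10 and logarithmic above. Acsl1, Cpb2, Ceacam10 and the Serpina1 genes lie to the right in the Ghrl-high wells and Iapp, Gcg, Ppy, Pyy, Sst, Ins1 and Ins2 to the left.

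All 7 hormone genes were lower in the Ghrl-high wells, with log2 fold changes of -5.58 ± 0.73 for Iapp, the islet amyloid gene, to -7.24 ± 0.82 for Sst (SE, n = 2 plates). With the totals without Ghrl as the scale these were -3.68 for Iapp and -5.40 for Sst. The median over all genes tested was -6.37 with TMM, so the size of the change alone does not set the hormones apart. Pcsk2, a prohormone convertase of alpha and beta cells, was also lower, with 616 and 817 CPM in the Ghrl-high wells of ppx 1 and sham 1 against 3559 and 3958 in the other wells (log2 fold change -3.65 ± 0.67). Tmem27, a membrane protein of beta cells, gave 77.0 CPM in the Ghrl-high wells of ppx 1 and 0 in that of sham 1, against 1519 and 1959 in the other wells. Neither gene was confined to alpha or beta wells here. In somatostatin-only wells of ppx 1 and sham 1 Pcsk2 stood at 4076 and 3518 CPM and Tmem27 at 1661 and 2078. Of the 26 lower genes, 9 had 0 UMIs in all 3 wells. The other wells are mostly somatostatin wells. Against insulin-only wells 53 genes were called (18 higher, 35 lower) with 943 tested. Against somatostatin-only wells 33 were called (13 higher, 20 lower) with 1097 tested. Both sets are smaller than the 6735 genes above, so these counts have unlike bases. The same 6 higher genes were among the calls each time, and of them only Cpb2 had passed the filter on all other wells alone.

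Another 3 transcripts were abundant in the wells but not called against all other wells with TMM scaling. Ttr, the thyroid hormone carrier transthyretin and an alpha cell marker, gave 33 and 122 UMIs in the ppx 1 wells and 75 in the sham 1 well, or 11933 and 15322 CPM in the Ghrl-high wells of ppx 1 and sham 1, against 2598 and 5126 in the other wells. Rbp4, the retinol carrier, gave 29 and 30 UMIs in the ppx 1 wells and 36 in the sham 1 well, or 4542 and 7354 CPM against 2029 and 2312. Chga, the granule protein chromogranin A, gave 67, 88 and 66 UMIs, or 11933 and 13483 CPM against 7579 and 8469. The log2 fold changes with TMM were 0.61 ± 0.55 for Ttr and 0.13 ± 0.53 for Rbp4, and with the totals without Ghrl they were 2.54 ± 0.31 and 2.03 ± 0.31 and called. For Chga the TMM value was -0.62 ± 0.55 and the totals gave a higher call (1.30 ± 0.30), so its direction depends on the scaling. The calls also depend on the wells compared. Against insulin-only wells, with TMM, Ttr (2.22 ± 0.49) and Rbp4 (3.20 ± 0.43) were called higher, and against somatostatin-only wells Ttr (4.38 ± 0.48) and Chga (1.43 ± 0.45) were.

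The wells held part of the transcripts used elsewhere to name epsilon cells. Of 20 genes listed as epsilon markers from mouse and human work, 8 and 6 had a UMI in the ppx 1 wells and 7 in the sham 1 well. All other wells pooled had a UMI of 13 on ppx 1 and of 12 on sham 1. Together the 20 genes made up 1.64% and 1.90% of UMIs other than Ghrl in the ppx 1 wells and 2.07% in the sham 1 well. The other wells had medians of 0.366% and 0.384% and highest values of 1.69% and 1.79%. Most of the sum in each Ghrl-high well was Rbp4, Acsl1, Serpina1a and Serpina1b, so it is no support for the list as a whole. Frzb went the other way, at 77.0 and 0 CPM in the Ghrl-high wells of ppx 1 and sham 1 against 404 and 413 in the other wells. Of the 10 list genes tested, 3 were called higher (Acsl1, Serpina1a and Serpina1b) and 0 lower, but these 3 are the ones that passed the filter only through the Ghrl-high wells, so their count is no support for the list. With the totals without Ghrl, the scale chosen after seeing the data, Rbp4 and Tm4sf4 were also called higher. Both passed the filter on the other wells alone. Tm4sf4 gave 4 and 3 UMIs in the ppx 1 wells and 11 in the sham 1 well. Rbp4 is also a delta marker. Asgr1, Anxa13, Vtn, Nnmt, Oprk1, Phgr1, Sptssb, Maob and Spink1 were at 0 in all 3 wells. Of these, Asgr1, Vtn, Nnmt, Oprk1, Phgr1 and Spink1 were also at 0 in all other kept wells of both plates.

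Mboat4, the acylating enzyme, was at 0 in all 3 wells. With 17884 UMIs in these wells together, a level under 3 UMIs could not be seen, and 1 UMI was counted in all other kept wells of both plates. Other genes of the prohormone route had UMIs in the 3 wells, at levels that the other wells also held. Pcsk1 gave 7 and 2 UMIs in the ppx 1 wells and 4 in the sham 1 well, Pcsk2 gave 4 in each, Cpe, the carboxypeptidase that trims peptide hormones, gave 12, 11 and 7, and Scg5, the chaperone of the Pcsk2 convertase, gave 8, 12 and 10. In the Ghrl-high wells of ppx 1 and sham 1 Pcsk1 stood at 693 and 817 CPM, against 310 and 278 in the other wells, while Cpe stood at 1771 and 1430 against 2942 and 3040 and Scg5 at 1540 and 2043 against 1208 and 1251. Ghrl took 32.8 to 39.8% of the UMIs in these totals, so the lower CPM of Cpe is in part a matter of scale. The convertase gene Furin was at 0 in all 3 wells. Of 12 ghrelin pathway genes 7 were tested, with 0 higher and 1 lower (Pcsk2), and of 8 known regulators of ghrelin cells 5 were tested, with 0 higher and 1 lower (Gnas, the stimulatory G protein subunit, not called with DESeq2's size factors in edgeR, with the totals without Ghrl or against insulin-only wells).

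Markers of beta, endothelial, macrophage, stromal and acinar cells were at or near 0 in the Ghrl-high wells. The alpha and delta lists lay above the medians of the other wells but within their range. Of 7 beta markers, Iapp alone had UMIs (12, 10 and 6), and Ucn3, Mafa, Slc2a2, G6pc2, Slc30a8 and Nkx6-1 were at 0 in all 3 wells. Endothelial, macrophage, stromal and acinar markers were all at 0. The alpha list summed to 0.902% and 3.35% in the ppx 1 wells and 2.37% in the sham 1 well, mostly Ttr, with Gc, a vitamin D binding protein, at 5, 9 and 3 UMIs, against medians of 0.0885% and 0.123% in the other wells, with Irx2 and Slc7a2 at 0. The delta list summed to 0.712%, 0.761% and 1.22%, mostly Rbp4, against medians of 0.443% and 0.391%, with Hhex, Ghsr, Lepr and Casr at 0. The highest other wells of ppx 1 and sham 1 reached 3.64% and 5.39% for the alpha list and 2.11% and 2.02% for the delta list. Above the lowest Ghrl-high well lay 11 and 38 other wells for the alpha list and 77 and 89 for the delta list. Among 17 islet transcription factors, Isl1, a factor of all mature islet endocrine cells, gave 2 and 6 UMIs in the ppx 1 wells and 2 in the sham 1 well, Neurod1 gave 1 in each, and Neurog3, Pax4 and Pax6 were at 0. Of the duct list Sox9 gave 0 and 1 UMI in the ppx 1 wells and 0 in the sham 1 well.

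Outside the Ghrl-high wells, low Ghrl counts were spread over the whole of both tomato-positive plates. On ppx 1 the 354 other kept wells held 443 Ghrl UMIs, and 220 of them (62.1%, exact 95% interval 56.9 to 67.2%) had at least 1. On sham 1 the 354 other kept wells held 135 Ghrl UMIs, and 104 of them (29.4%, 24.7 to 34.4%) had at least 1. On ppx 1 the counts were 0 in 134 wells, 1 in 104, 2 in 64, 3 in 26 and 4 to 9 in the rest, and on sham 1 they were 0 in 250 wells, 1 in 79, 2 in 20, 3 in 4 and 4 in 1. The level was 363 CPM on ppx 1 (exact Poisson 95% interval 330 to 399) and 111 on sham 1 (92.9 to 131). When each well was thinned to 1000 UMIs, 36.5% of 323 wells on ppx 1 and 11.0% of 328 wells on sham 1 had a Ghrl UMI, and 31 and 26 shallower wells were left out. The kept wells of ppx 2, ppx 3, sham 2 and sham 3 held 0 Ghrl UMIs among 5645169, where 3 UMIs would be 0.531 CPM. Intervals and floors cover counting error only.

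Set against the content of the Ghrl-high wells, the shares of the 2 plates overlapped. UMIs outside the Ghrl-high wells, with wells of every quality included, made up 8.54% of all Ghrl UMIs on ppx 1 (451 of 5284, exact 95% interval 7.80 to 9.32%) and 8.02% on sham 1 (140 of 1746, 6.79 to 9.39%), and these intervals overlap. The Ghrl-high wells of ppx 1 held 3.01 times the UMIs of that of sham 1, and the mean over the other wells was 3.28 times as high. For every 1000 UMIs in the Ghrl-high wells, each other kept well held 0.259 UMIs on ppx 1 and 0.237 on sham 1. For Gcg, whose source is 17 glucagon wells on ppx 1 and 51 on sham 1, the same figure was 0.206 and 0.168, and it was 0.128 to 0.216 on the other 4 plates. For the 2 insulin genes it was 0.0791 on ppx 1 and 0.0735 on sham 1, for Sst 0.473 and 0.276, and for Ppy 0.772 and 0.762, where wells under the threshold may also make the hormone. How these UMIs came to the other wells was not tested.

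Genes with another narrow source also gave UMIs outside it on other plates. By a rule chosen after seeing the data (a well with at least 100 UMIs of the gene and over 80% of the plate's UMIs in at most 3 wells), 28 further pairs of gene and plate were found, on ppx 3 and sham 3. On sham 3, 1 well held 2328 of 2551 UMIs of Igha, an immunoglobulin heavy chain of plasma cells, and 8.74% lay outside it (7.67 to 9.91%). On the same plate 8.71% of the UMIs of Jchain, which joins immunoglobulin units, lay outside its source (6.53 to 11.3%). For the light chain Igkc it was 5.05% (4.21 to 5.99%). The source of Igha, Jchain and Igkc was the same well, and the interval of Igkc lay below those of Igha and Jchain. The 4 globin genes had 2.54 to 4.89% outside. On ppx 3, 18 genes, mostly digestive enzymes of acinar cells from 1 well, had 0.621 to 4.84% outside, or 2.40% pooled (2.05 to 2.79%), and 3 immunoglobulin genes 3.04 to 7.89%. The shares for Ghrl were at the upper end of these, level with Igha and Jchain of sham 3. The genes of the acinar source well of ppx 3 ran from 0.621% for Reg2 (exact 95% interval 0.0157 to 3.41%) to 4.84% for Ctrl (2.52 to 8.30%), and these intervals overlap.

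**Figure D3:**
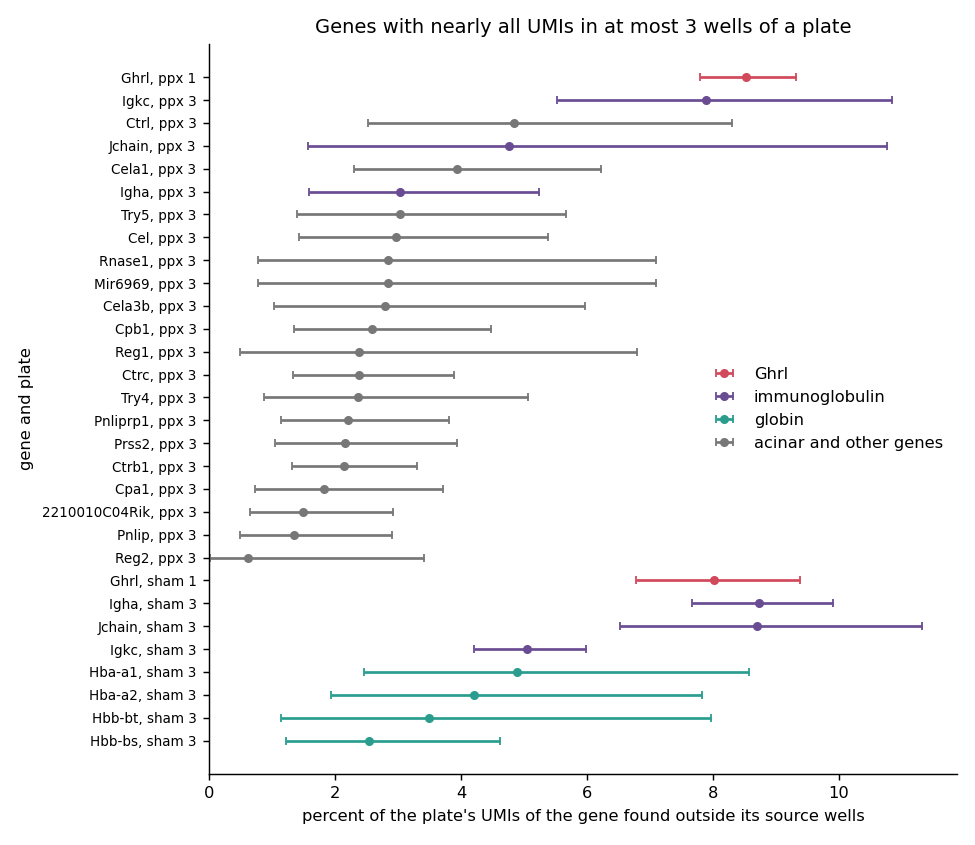
Percent of a gene's UMIs on a plate that lay outside its source wells, for Ghrl and for 28 further pairs of gene and plate, with exact 95% intervals for counting error. Ghrl on ppx 1 (8.54%) and on sham 1 (8.02%) lies beside Igha and Jchain of sham 3 (8.74% and 8.71%) and above the acinar genes of ppx 3 (at most 4.84%).

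The 6 other genes with most of their UMIs of the 2 tomato-positive plates in the Ghrl-high wells were too rare to follow in the same way. Acsl1, Ceacam10, Serpina1a, Serpina1b, Serpina1d and Irs4 together gave 135 UMIs in the Ghrl-high wells and 42 outside, of which Acsl1 alone gave 31. Ceacam10 had 0 UMIs outside on these plates beside 24 inside, which allows a share of up to 14.2% (exact 95% bound), above the share of Ghrl.

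The low counts were found in most kinds of well. Wells were sorted by hormone content, with insulin over 3%, Sst over 1%, Gcg over 2% and Ppy, the pancreatic polypeptide gene, over 2% of UMIs. Insulin-only wells held 367 Ghrl CPM on ppx 1 (exact 95% interval 277 to 477, 25 wells) and 89.6 on sham 1 (46.3 to 156, 23 wells). Somatostatin-only wells held 480 on ppx 1 (369 to 614, 81 wells) and 123 on sham 1 (73.2 to 195, 93 wells). Wells with both somatostatin and Ppy held 478 on ppx 1 (399 to 568, 142 wells) and 128 on sham 1 (86.0 to 184, 118 wells), and wells with both insulin and somatostatin held 281 (235 to 334, 66 wells) and 96.1 (64.8 to 137, 49 wells). Wells with none of the hormones, few and shallow, held 663 on ppx 1 (318 to 1219, 10 wells) and 421 on sham 1 (115 to 1077, 7 wells). Glucagon-only wells held 285 on ppx 1 (123 to 561, 4 wells) and 34.2 on sham 1 (4.15 to 124, 15 wells). On sham 1 the 2 wells with both glucagon and Ppy and the 1 well with both insulin and glucagon held 0 Ghrl UMIs. On each plate the somatostatin wells and the insulin-only wells had overlapping intervals, while on ppx 1 the interval of the insulin and somatostatin wells lay below those of the somatostatin wells. These insulin and somatostatin wells had a median of 6626 UMIs, against 1605 for somatostatin-only wells.

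**Figure D4:**
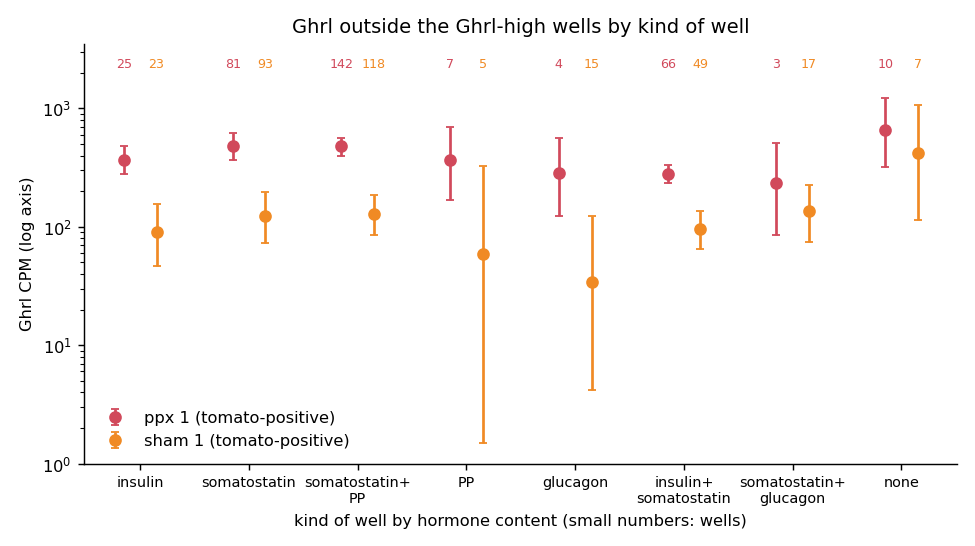
Ghrl CPM in the summed wells of each kind, Ghrl-high wells left out, with exact Poisson 95% intervals, on a log axis and with the number of wells above. In every kind shown the ppx 1 value is above the sham 1 value, and for insulin-only wells they are 367 and 89.6.

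Ghrl counts per well went up with the depth of the well while Ghrl CPM went down above 2000 UMIs. On ppx 1 wells with 500 to 1000 UMIs averaged 0.387 Ghrl UMIs, those with 1000 to 2000 averaged 0.837, and those over 8000 averaged 2.84. On sham 1 the averages were 0.115, 0.248 and 0.857. In CPM the values were 554 in wells of 1000 to 2000 UMIs (exact 95% interval 462 to 659) and 285 in wells over 8000 (234 to 344) on ppx 1, and 174 (121 to 242) and 78.3 (50.1 to 116) on sham 1, so that the intervals did not overlap. Gcg in wells with no more than 2% Gcg was also lower in the deeper bin, with 2433 and 1379 CPM in these bins on ppx 1 and 3925 and 2438 on sham 1. Sst in wells with no more than 1% Sst went the other way, with 1896 and 4694 CPM on ppx 1 (6 and 13 wells) and 2025 and 5171 on sham 1 (2 and 5 wells). In the shallowest wells Ghrl stood at 459 CPM on ppx 1 and 139 on sham 1, with intervals that overlap those of the next bin, and Gcg at 3942 and 4489. Across the 354 wells of a plate, Pearson's r between Ghrl UMIs and depth was 0.461 on ppx 1 and 0.327 on sham 1 (Spearman's rho 0.470 and 0.349), as a description of wells that share a library. Ghrl counts were more spread than a Poisson count would be on ppx 1, with a variance of 1.71 times the mean, and nearer to it on sham 1, at 1.18 times.

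**Figure D5:**
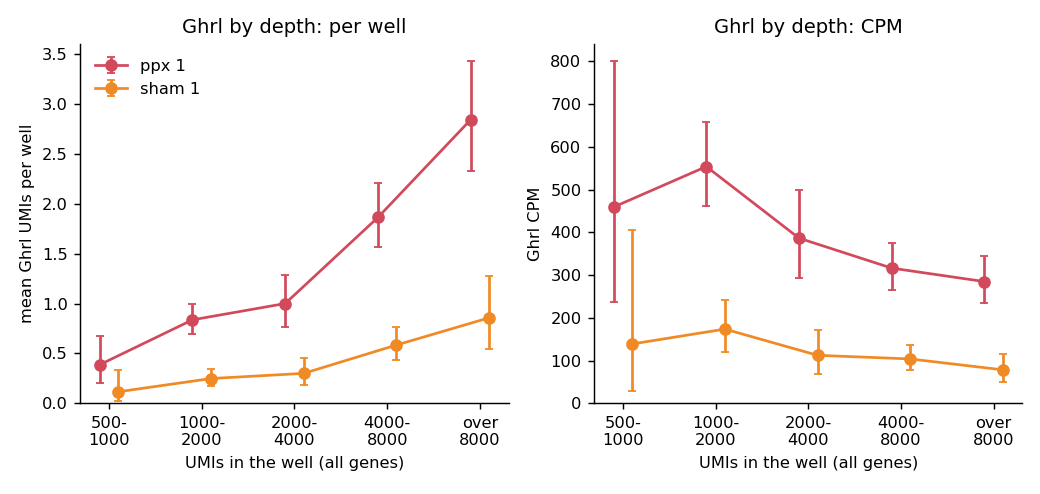
Mean Ghrl UMIs per well (left) and Ghrl CPM (right) in kept wells other than the Ghrl-high wells, by the total UMIs of the well, with exact Poisson 95% intervals. The mean per well is highest in wells over 8000 UMIs (2.84 on ppx 1, 0.857 on sham 1), where the CPM is lowest (285 and 78.3).

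The column order of the tables gave no sign of a patch around the Ghrl-high wells. Within 3 columns of such a well the mean was 1.5 Ghrl UMIs on ppx 1 (exact 95% interval 0.889 to 2.37, 12 wells) and 0.167 on sham 1 (0.00422 to 0.929, 6 wells), against 1.17 and 0.369 in wells further away. How columns map to places on the plate was not given.

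No gene followed Ghrl closely from well to well. Over the 711 kept wells of the 2 plates the highest of 11354 correlations of log2(CPM + 1) with Ghrl were r = 0.235 for Ins2, 0.234 for the galactosidase-like gene Glb1l and 0.215 for the long noncoding RNA Gm26917, with Rpn1, Manf, Bace2, Nkx6-1, Rps3, Slc37a3 and Ero1lb between 0.189 and 0.196. Without the Ghrl-high wells Ins2 was again first, at 0.253. In sparse counts that share library and depth such weak values are no finding.

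Ghsr, the receptor gene, was detected in a larger share of somatostatin wells than of insulin-only wells on every plate but ppx 2. A Ghsr UMI was found in 39 of 223 somatostatin wells with or without Ppy on ppx 1 (17.5%, exact 95% interval 12.7 to 23.1%), 0 of 9 on ppx 2 and 1 of 11 on ppx 3. On sham 1 it was found in 33 of 211 (15.6%, 11.0 to 21.3%), on sham 2 in 10 of 63 (15.9%, 7.88 to 27.3%) and on sham 3 in 2 of 19. Insulin-only wells, which should lack the receptor, had it in 1 of 25, 0 of 290 and 0 of 292 wells on ppx 1, 2 and 3 and in 1 of 23, 1 of 177 and 0 of 195 on sham 1, 2 and 3, although they were deeper (median 5269 against 1593 UMIs on ppx 1). In the somatostatin wells Ghsr stood at 112 CPM on ppx 1 and 118 on sham 1, and the intervals overlap. Over all kept wells, somatostatin wells included, it was found in 52 of 356 (14.6%, 11.1 to 18.7%) on ppx 1. On sham 1 it was found in 58 of 355 (16.3%, 12.6 to 20.6%). The shares of the somatostatin wells lay near these, in shallower wells (median 1593 against 1954.5 UMIs on ppx 1). In CPM all kept wells stood at 49.5 on ppx 1 and 61.3 on sham 1.

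Between the operations, the level of Ghrl outside the Ghrl-high wells rested on 1 plate each. The mean of log2(CPM + 1) was 2.84 over the 3 ppx plates and 2.27 over the 3 sham plates, a difference of 0.57. The values of ppx 2, ppx 3, sham 2 and sham 3 were at 0, and an exact two-sided permutation of 3 plates against 3 could not give a p under 0.1, so no call was possible. The pair of tomato-positive plates stood at 363 CPM after ppx and 111 after sham operation, and with 1 plate each there is no test within tomato status. Without ppx 1 the difference was -2.27 and without sham 1 it was 2.84, and it was -0.57 without sham 2 or sham 3.

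The genes around ghrelin did not pass the test between operations in insulin-only or somatostatin-only wells. In insulin-only wells edgeR called 25 of 8239 genes (0.303%), 18 higher (0.218%) and 7 lower (0.0850%) after ppx, a count that ran from 10 (without sham 3) to 47 (without ppx 1) when 1 plate was left out. Of the 12 ghrelin pathway genes 6 were tested and 0 were called, with the smallest p for Scg5 (log2 fold change 0.17 ± 0.14), Lypla1, a thioesterase that can remove the acyl group (-0.22 ± 0.25), and Furin, a convertase (0.27 ± 0.40). Of the 20 epsilon markers 7 were tested, of the 8 regulators 4, and 0 of each were called, with medians of -0.04 and 0.14 beside -0.003 over all genes. Among the hormones Gcg was lower, at 1371, 981 and 381 CPM on ppx 1, 2 and 3 against 2956, 3328 and 2064 on sham 1, 2 and 3 (log2 fold change -1.67 ± 0.26, edgeR adjusted p = 0.000357), and the 2 groups did not overlap. DESeq2 did not call it (-1.60, adjusted p = 0.396). Wells with over 2% Gcg moved with it, at 17, 20 and 10 on ppx 1, 2 and 3 against 51, 65 and 64 on sham 1, 2 and 3, and their part in the result was not tested. Insulin-only wells hold under 2% Gcg by their definition. In somatostatin-only wells (2 ppx and 3 sham plates) edgeR called 0 of 467 genes (0%), with 13 at an unadjusted p under 0.05 and 0 called by DESeq2. Of the pathway genes 3 were tested there and 0 called.

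Sst, Rbp4, Ppy and Pyy rose beside Ghrl in the insulin-only wells of the tomato-positive plates. The 2 tomato-positive plates were compared with the 3 tomato-negative ones in insulin-only wells by edgeR with the operation as a covariate, and 6 of 8852 genes other than Ghrl were called (0.0678%), all higher, a count that ran from 4 (without ppx 2) to 42 (without sham 1) when 1 plate was left out. Sst stood at 4774 and 2852 CPM on ppx 1 and sham 1, against 249, 234 and 362 on ppx 2, ppx 3 and sham 3 (log2 fold change 3.89 ± 0.22, adjusted p = 1.59e-09). Rbp4, abundant in delta cells, stood at 584 and 351 against 10.9, 6.51 and 23.1 (5.32 ± 0.35, adjusted p = 6.4e-09). Ppy rose by 2.12 ± 0.21 and Pyy, the gene of peptide YY, by 2.22 ± 0.25 on the log2 scale. Insulin-only wells hold no more than 1% Sst and 2% Ppy by their definition, so the levels of these 2 genes are capped here. There were 25 and 23 such wells on ppx 1 and sham 1, against 290, 292 and 195 on ppx 2, ppx 3 and sham 3. Arg1, an arginase, stood at 91.8 and 59.7 against 0, 0.814 and 1.05, and Fam159b at 151 and 112 against 27.7, 38.3 and 51.4 (adjusted p = 0.0499). Pyy lost its call without ppx 2 (edgeR adjusted p = 0.0784), and with no filter on low counts Ppy and Pyy both lost it (0.0645 and 0.222). Fam159b lost its call with no filter and without ppx 1, 2 or 3, and it had the opposite sign with hormone thresholds at 0.5 times. At that setting Rbp4 (3.41), Sst (2.20), Ppy (0.87) and Pyy (0.97) were called with smaller changes, and Arg1 was below the filter there and without ppx 1.

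Ghrl in the same wells stood at 367 and 89.6 CPM on ppx 1 and sham 1 and at 0 on ppx 2, ppx 3 and sham 3. Pooled over ppx 1 and sham 1 the counted level was 267 times a floor of 3 UMIs over the 3 tomato-negative plates. With sham 1 alone it was 100 times that floor. These ratios leave out the counting error of the Ghrl UMIs (exact Poisson interval 46.3 to 156 CPM on sham 1), so they are not lower bounds. The make-up of the plates moved with these Ghrl levels. Somatostatin wells with or without Ppy were 62.6% of kept wells on ppx 1 and 59.4% on sham 1, against 2.49%, 3.14% and 5.60% on ppx 2, ppx 3 and sham 3, and their part in the result was not tested. The mixed plate, sham 2, had 17.8% such wells and 0 Ghrl UMIs. The ghrelin pathway list had 0 of 6 tested genes called between the tomato classes, and the 20 epsilon markers had 1 of 7, Rbp4.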

How the data were processed

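The assay was MARS-seq, which sorts cells into wells and counts UMIs at transcript 3′ ends. Whole-number UMI counts were deposited by the authors for each well of each plate, without scaling. The submitters' processing notes name HISAT 0.1.6 and the mm10 build. The counting tool, annotation and strand setting are not given in the sources. The 92 ERCC spike-in entries (3 UMIs) were left out of totals. Wells under 500 UMIs or over 20% mitochondrial UMIs were left out, and doublets were not removed. No well name was shared between plates. Plates, not wells, are the replicates. UMIs were summed per plate and kind of well (at least 5 wells) and tested with edgeR 4.0.16 (R 4.3.3; TMM, filterByExpr, quasi-likelihood, Benjamini-Hochberg over all genes), with DESeq2 1.42.0 as the second tool. The fits were tested on simulated counts. Levels are CPM of summed UMIs with exact Poisson intervals, and shares have exact Clopper-Pearson intervals at 95%, both in Python 3.11.15 with scipy 1.17.1. Ghrl was set side by side between operations on log2(CPM + 1), as a description. Alternatives were the normalisation, the filters, the thresholds, the tool, tomato status or replicate number as a term, and leaving out each plate. Positions are from GENCODE M21 on GRCm38. Named genes are the islet hormones, Ghsr and Mboat4, called list members or else those with the smallest p, and the called genes with the largest changes in the Ghrl-high wells. The gene, the lists, the thresholds and the tests were chosen with earlier results of these data known. Some members of the marker lists count in the sums but are not reported here by name.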

Additional observations from a re-analysis of the deposited data

Results flagged for a closer look

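Ghrl was also found in wells left out by the filters, which entered no comparison. On ppx 1 it gave 8 UMIs in 7 of 28 such wells and on sham 1 it gave 5 UMIs in 4 of 29, while the left-out wells of ppx 3, sham 2 and sham 3 held 0. The highest of these wells held 2 UMIs. On ppx 2 a single left-out well held 3 Ghrl UMIs, the only ones outside the tomato-positive plates. It had 1769 UMIs with 31.7% from mitochondrial genes, and it also held 23 UMIs of Igfbp7, 16 of Col4a1, 12 of Sparc and 9 of Plvap, genes of endothelial and stromal cells.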

How the results depend on the processing

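The levels and shares of Ghrl outside the Ghrl-high wells stayed within their counting intervals with no filter on wells and with thresholds of 500 or 100 UMIs. The difference between operations in log2(CPM + 1) ran from -2.27 to 2.84 when 1 plate was left out, was 1.09 with no filter on wells, and was 0.57 with the replicate block. In insulin-only wells the 25 calls between operations became 10 with DESeq2, 60 with no filter on low counts, 13 with hormone thresholds doubled and 57 with thresholds at 0.5 times. They ran from 10 to 47 with 1 plate left out: 47 without ppx 1, 15 without ppx 2 or sham 2, 11 without ppx 3 and 10 without sham 3. Ghrl itself is left out of these counts. In somatostatin-only wells the 0 calls became 1 with no filter on low counts, 2 with thresholds doubled and 3 at 0.5 times, and ran from 0 to 2 with 1 plate left out (2 without ppx 1, 1 without ppx 3). Between tomato-positive and tomato-negative plates the 6 calls became 3 with no filter and 52 with thresholds doubled, and ran from 4 to 42 with 1 plate left out (15 without ppx 1 or sham 3, 42 without sham 1, 4 without ppx 2). Fam159b was -0.23 there at 0.5 times. For the Ghrl-high wells the 32 calls became 21 with DESeq2 and 19 with DESeq2's size factors. Against insulin-only wells they became 53, where only 943 genes were tested. Leaving out a plate could not be fitted, since 1 plate leaves no residual degrees of freedom. The replicate block left the 25 and 0 calls of the operation at 25 and 0, and same-numbered plates did not deviate together (correlations of 0.016 to 0.02). Depth also limits the Ghrl-high wells: 17884 UMIs in 3 wells cannot show genes at low levels.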
